A study of Mus musculus with 2 samples.

Results

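The genes described are 10 antioxidant enzyme genes, Gpx3, Sod1, Sod2, Sod3, Cat, Hmox1, Nqo1, Txnrd1, Gclm and Prdx1, of 21014 genes in the tables. They were listed by name, and all 10 were found in both tables. They were followed through 2 single-cell libraries of fibroblastic stroma taken from the lung of C57Bl/6J mice, 1 from animals given a high fat diet (HFD) and 1 from animals given normal chow (NC), both for 16 weeks. Both libraries were made with a 10x Genomics 3′ kit, which counts RNA from the 3′ end in single droplets. The labels give no other allele or agent, and neither the number of animals behind a library nor their age. Each diet is therefore 1 sample. No test across animals was possible, each difference is between these 2 libraries, and every interval covers counting error only.

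Superoxide dismutases turn superoxide into hydrogen peroxide, SOD1 mainly in the cytosol, SOD2 in the mitochondrial matrix and SOD3 outside the cell, bound to the matrix. Catalase, the peroxiredoxins and the glutathione peroxidases then remove peroxide, and GPX3 is the secreted, selenium-containing member of the last family, found in plasma and in the fluid lining the airways. The reducing power comes from glutathione, whose synthesis GCLM helps to start, and from thioredoxin, which TXNRD1 recharges. HMOX1, which degrades haem, and NQO1, a quinone reductase, are known together with GCLM, TXNRD1 and PRDX1 as targets of the transcription factor NRF2 (gene Nfe2l2), which binds antioxidant response elements. SOD2 is a known target of NF-kB.

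Promoters are shown for 5 members: Gpx3 and Sod1, whose HFD over NC ratio in the pooled fibroblasts was above 1, Sod2 and Txnrd1, whose ratio was below 1, and Prdx1, whose ratio was near 1. Each sequence is the 250 bases before the RefSeq start (build GRCm38.p6, all on the + strand, written 5′ to 3′). Capitals mark a match on either strand to the core of the antioxidant response element, TGACNNNGC, or to the NF-kB consensus.
Gpx3, chr11:54902604-54902853: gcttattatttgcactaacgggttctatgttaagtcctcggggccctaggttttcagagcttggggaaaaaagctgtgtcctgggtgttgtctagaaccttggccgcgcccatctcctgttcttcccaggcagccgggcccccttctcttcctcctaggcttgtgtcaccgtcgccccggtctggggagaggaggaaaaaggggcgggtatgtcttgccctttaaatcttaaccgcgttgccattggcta
Sod1, chr16:90220512-90220761: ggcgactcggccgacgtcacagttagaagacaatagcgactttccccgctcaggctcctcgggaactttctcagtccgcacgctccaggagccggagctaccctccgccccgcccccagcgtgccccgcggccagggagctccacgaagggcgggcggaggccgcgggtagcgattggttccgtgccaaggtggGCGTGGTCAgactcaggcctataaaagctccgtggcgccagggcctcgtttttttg
Sod2, chr17:13007589-13007838: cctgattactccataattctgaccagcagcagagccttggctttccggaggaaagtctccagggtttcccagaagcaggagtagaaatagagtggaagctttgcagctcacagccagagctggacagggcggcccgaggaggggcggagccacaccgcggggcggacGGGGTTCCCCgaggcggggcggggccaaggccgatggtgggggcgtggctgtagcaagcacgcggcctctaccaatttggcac
Txnrd1, chr10:82858956-82859205: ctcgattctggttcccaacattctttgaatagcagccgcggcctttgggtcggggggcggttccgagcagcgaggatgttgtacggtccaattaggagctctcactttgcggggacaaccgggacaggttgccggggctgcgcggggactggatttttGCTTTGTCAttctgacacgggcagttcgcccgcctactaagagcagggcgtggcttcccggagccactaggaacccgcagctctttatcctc
Prdx1, chr4:116685349-116685598: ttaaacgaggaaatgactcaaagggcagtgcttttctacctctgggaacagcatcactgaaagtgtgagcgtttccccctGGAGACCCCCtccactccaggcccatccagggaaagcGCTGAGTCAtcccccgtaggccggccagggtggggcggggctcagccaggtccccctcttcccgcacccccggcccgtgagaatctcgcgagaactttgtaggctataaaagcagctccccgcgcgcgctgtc

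RefSeq promoters were matched for 8 members, 10 promoters in all, since Txnrd1 has 3. The response element core occurred in 4 of the 10, those of Sod1, Gclm, Prdx1 and the Txnrd1 promoter shown, each time on the strand opposite to the gene. It occurred in 10.2% of 32851 mouse promoters of the same length. The NF-kB consensus occurred in the promoters of Sod2, on both strands at the same bases, and of Prdx1, against 3.9% of all promoters. In Sod2 the match GGGGTTCCCC lies 83 to 74 bases before the start. In Prdx1 the NF-kB match lies 170 to 161 bases before the start and the response element core 133 to 125. The 2 motifs did not overlap in any member. These are matches of letters in a short window. Gpx3 had neither motif there.

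Cells were kept with 500 or more genes detected and a mitochondrial share of 10% or less, which left 6089 HFD and 8140 NC cells, with medians of 10045 and 7524 counts per cell. The deposited annotation puts them in 5 classes. Asc1 fibroblasts (3092 HFD and 3999 NC cells), Gas6 fibroblasts (1095 and 2002), Pi16 fibroblasts (796 and 1222) and myofibroblasts (510 and 667) are pooled below as fibroblasts. The fifth class, labelled pericytes (596 and 250), is kept apart. Its smooth muscle genes (5 genes) summed to 18281 and 17774 CPM, of which Acta2 alone gave 12769 and 12126 CPM. Its pericyte genes (8 genes) summed to 803 and 581 CPM, against 587 and 374 CPM in myofibroblasts, the next class. Both sums were highest in this class, and sums over unlike genes do not settle which cells it holds. It is called by its label only. The genes Slc7a10, Pi16 and Aspn were highest in the Asc1, Pi16 and myofibroblast classes, whereas Gas6 was at 250.3 and 308.6 CPM in the Gas6 class and at 278.7 and 277.2 CPM in the Pi16 class. Pecam1, Epcam and Ptprc, which mark endothelial, epithelial and immune cells, were at 0 in every class, but other markers of these cells were detected. Over the 5 classes, 5 endothelial genes summed to 0.341 to 4.46 CPM in HFD and 1.14 to 4.46 CPM in NC, and 5 epithelial genes to 13.5 to 46.3 CPM and 2.08 to 34.3 CPM. The 8 macrophage and monocyte genes found summed to 11.4 to 151 CPM in HFD, highest in myofibroblasts, and to 30.96 to 91.8 CPM in NC, highest in Pi16 fibroblasts. In a first set of per-cell columns, the total lay within 1% of the later one in 100% of NC cells but in 6.24% of HFD cells, and only the later columns were used. The kept cells of the 2 libraries shared 16 barcodes.

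Levels are CPM, the share of a gene in all counts summed over the kept cells of a class, scaled to 1000000. A gene was measured where it had at least 50 effective counts over both libraries, that is, counts divided by a factor for the spread of low counts (4.85 in HFD and 3.98 in NC). It was called higher or lower by size where the HFD over NC ratio was at least 1.5 in either direction. In bulk-like sums such as these, fewer expressing cells and less RNA per cell cannot be told apart, so shares of cells are given as well. For shares, each cell was thinned to 2000 counts, because HFD cells held more counts than NC cells.

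In the pooled fibroblasts, Sod2 was the one member called by size, lower in HFD, and Gpx3 was the member with the highest ratio. All 10 members were measured there. None was at least 1.5-fold higher, against 5.45% of 13422 genes, and 1 was at least 1.5-fold lower, against 4.75%. In either direction, 10.2% of all genes were called, so the members' share of 1 in 10 is that of the background. The ratio was above 1 for 3 members and below 1 for 7, with a median log2 ratio of -0.080, against 0.025 over all genes measured. The median absolute log2 ratio over all genes measured was 0.20.

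**Figure D1:**
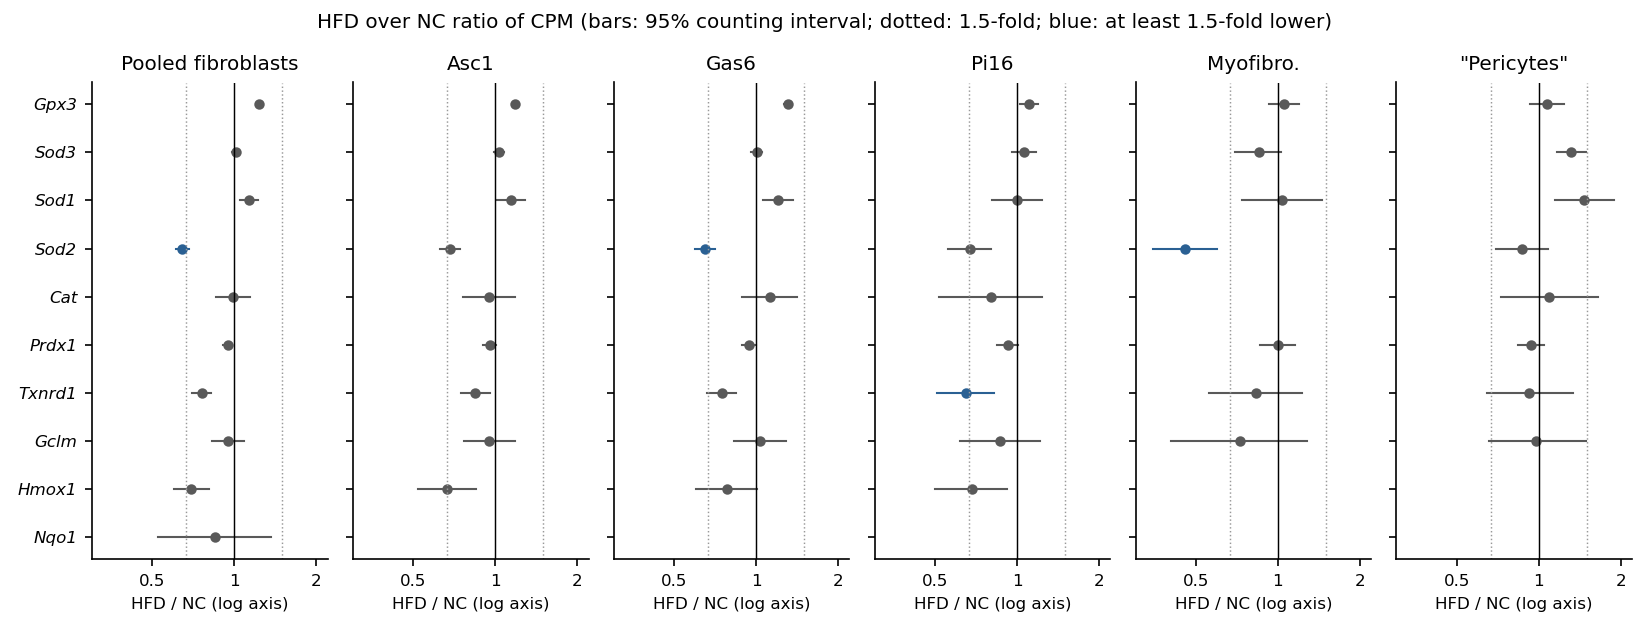
HFD over NC ratio of CPM (horizontal log axis) for each measured member, in the pooled fibroblasts and in each class; points are ratios, bars 95% counting intervals, the solid line equality and dotted lines 1.5-fold. Sod2 (blue, called lower) is at 0.644 in the pooled fibroblasts, and Gpx3 lies above 1 in all 6 panels.

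Gpx3 was the secreted peroxidase with a graded level across the stroma. In HFD it stood at 2123 CPM in Asc1 fibroblasts, 1679 in Gas6 fibroblasts, 749 in Pi16 fibroblasts, 638 in myofibroblasts and 246 in the class labelled pericytes. In NC the levels were 1795, 1285, 676, 605 and 229 CPM in the same order. The order was thus the same in both libraries, and every pair of neighbours in it differed beyond counting error. From the highest class to the lowest the level differed 8.64-fold in HFD (7.99 to 9.35) and 7.82-fold in NC (6.91 to 8.89). At equal depth, 86.1% of Asc1 fibroblasts in HFD and 84.0% in NC had a Gpx3 count, against 43.1% and 43.8% of myofibroblasts and 21.6% and 16.8% of the class labelled pericytes. Without thinning those shares were 94.05% and 92.9%, 58.04% and 59.1%, and 38.3% and 37.6%.

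Part of the Gpx3 signal in the class labelled pericytes sat in few cells. The 10 cells with the most Gpx3 counts held 22.7% of its counts in that class in HFD and 40.5% in NC. Its level there was 11.6% of the Asc1 level in HFD and 12.8% in NC. Of 7 Asc1 marker genes, 6 lay at 7.03 to 8.37% in HFD and at 7.57 to 10.5% in NC, and Npnt at 22.1% and 21.9%. In the opposite direction, 4 of 5 smooth muscle genes were in Asc1 fibroblasts at 0.420 to 0.683% of their level in the class labelled pericytes in HFD and 0.291 to 0.639% in NC, and Des at 3.96% and 4.16%. Gpx3 was thus near the values of Asc1 markers in that class, and the part that RNA or doublets from Asc1 cells play in its level there was not tested. Sod3, by contrast, was at 64.8% and 50.8% of its Asc1 level, and Prdx1 at 102% and 104%.

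**Figure D2:**
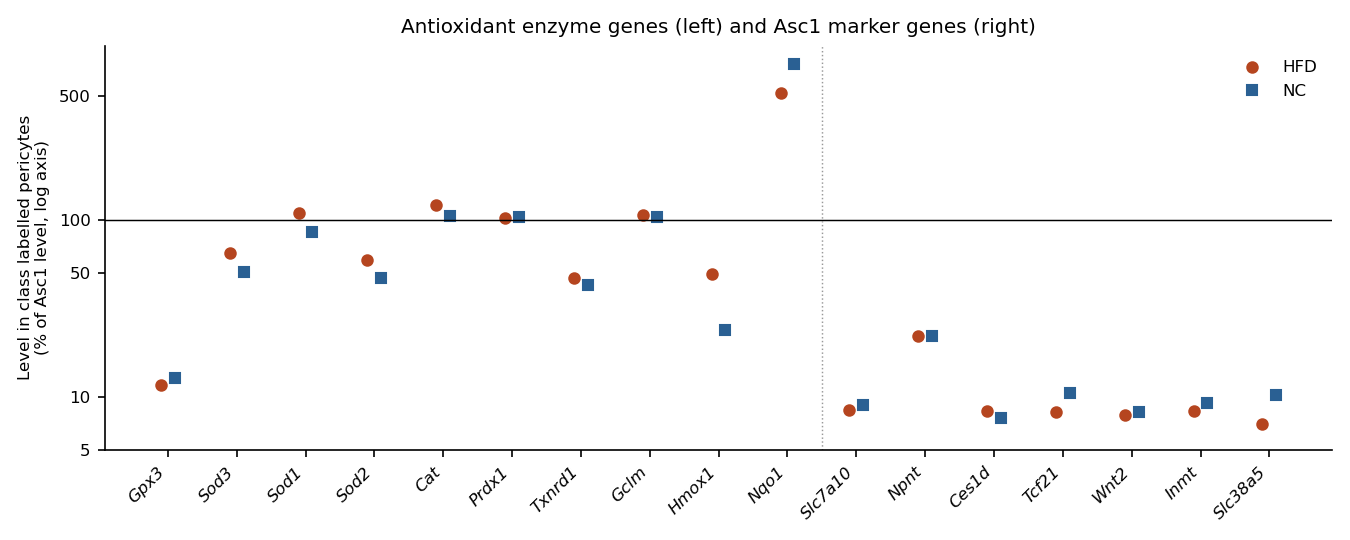
Level in the class labelled pericytes as a percentage of the level in Asc1 fibroblasts (vertical log axis) for the 10 members, left of the dotted line, and 7 Asc1 marker genes, right of it; circles are HFD and squares NC, 1 library each. Gpx3, at 11.6% and 12.8%, lies near the markers, and Prdx1, at 102% and 104%, near equality.

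Between the diets, Gpx3 stood at 1681 CPM in the pooled HFD fibroblasts and 1361 CPM in NC, a ratio of 1.24 (interval 1.21 to 1.26). This is below the 1.5-fold size used for calls. The ratio was above 1 in all 5 classes: 1.31 in Gas6 fibroblasts (1.26 to 1.35), 1.18 in Asc1 fibroblasts (1.15 to 1.21) and 1.11 in Pi16 fibroblasts (1.03 to 1.19). In myofibroblasts it was 1.06 (0.929 to 1.20) and in the class labelled pericytes 1.07 (0.926 to 1.24), intervals that hold 1. In Gas6 fibroblasts the share of cells with a Gpx3 count at equal depth was 87.7% in HFD (85.6 to 89.6%) and 80.1% in NC (78.3 to 81.8%). The median Gas6 fibroblast had 3 Gpx3 counts among 2000 in HFD and 2 in NC. The summed level of the 7 Asc1 markers was also higher in HFD in the same sums, at 7998 and 6102 CPM in the pooled fibroblasts, 10757 and 8566 in Asc1, 7772 and 5741 in Gas6 and 3111 and 2532 in Pi16 fibroblasts, and 1140 and 999 in the class labelled pericytes. In myofibroblasts the marker sum was nearly the same, at 377 and 369 CPM. Inmt alone made up 7161 and 5449 CPM of the sum in Asc1 fibroblasts, where each other marker was also higher in HFD. The part of this marker shift in the Gpx3 difference was not tested. The diet difference was small beside that between classes, as the chow library alone ran from 1795 CPM in Asc1 fibroblasts to 605 CPM in myofibroblasts.

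**Figure D3:**
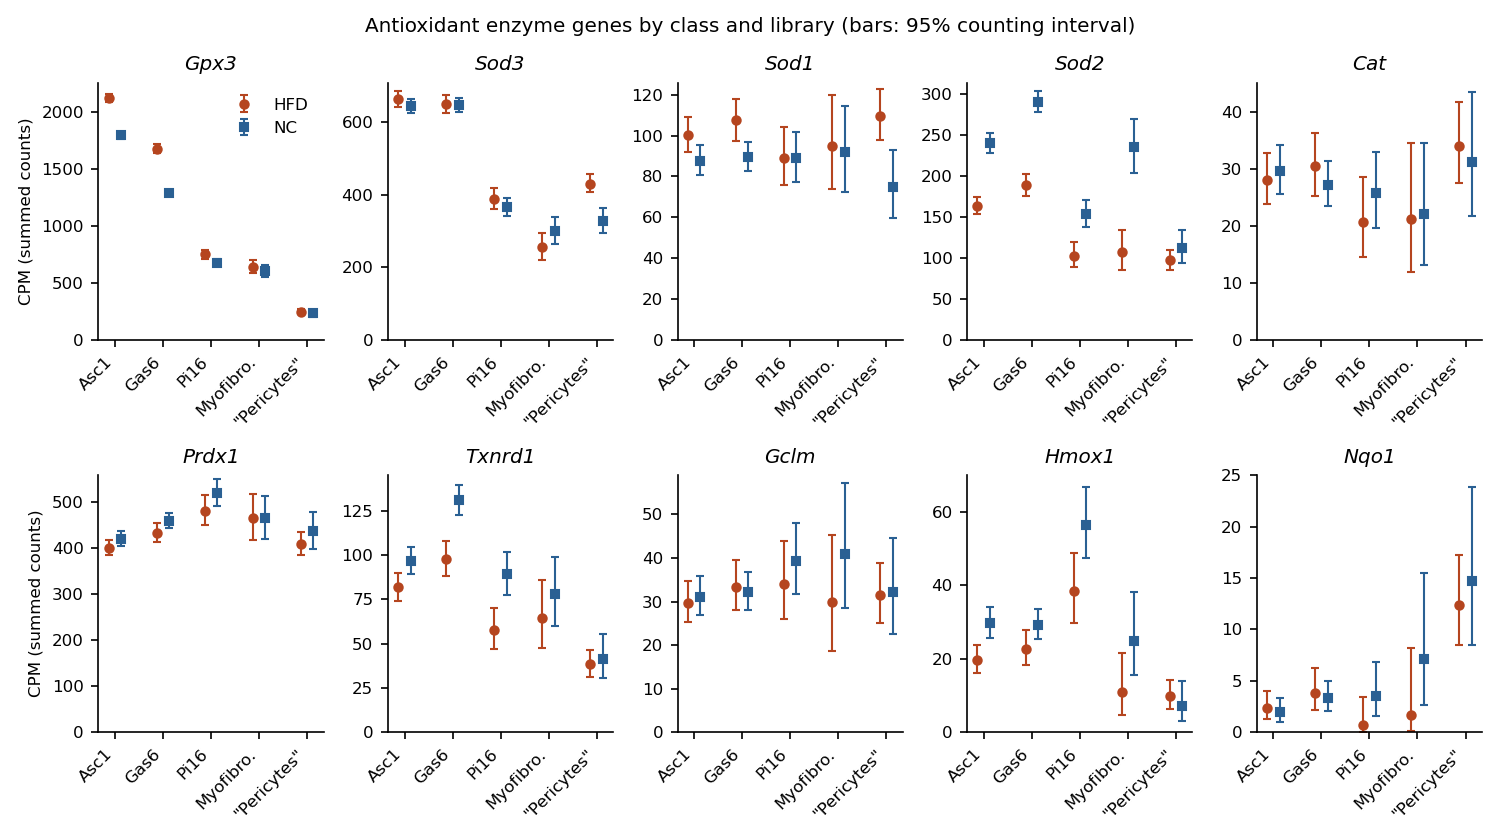
CPM of each member (vertical axes from 0) in the 5 classes; circles are HFD and squares NC, 1 library each, with 95% counting intervals. Gpx3 falls stepwise from 2123 and 1795 CPM in Asc1 fibroblasts to 246 and 229 CPM in the class labelled pericytes, Prdx1 is nearly level, and Sod2 is lower in HFD in all 4 fibroblast classes.

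Sod3, the extracellular dismutase, was shared by the Asc1 and Gas6 fibroblasts. It was at 664 and 644 CPM in Asc1 fibroblasts and at 650.2 and 647 CPM in Gas6 fibroblasts, in HFD and NC. These 2 classes did not differ beyond counting error in either library. Pi16 fibroblasts had 388 and 366 CPM, the class labelled pericytes 431 and 327 CPM, and myofibroblasts, the lowest class in both libraries, 255 and 299.9 CPM. In HFD the last 3 differed from each other beyond counting error. In NC, Pi16 fibroblasts did not differ from the class labelled pericytes, nor that class from myofibroblasts. Highest and lowest class differed 2.61-fold in HFD (2.25 to 3.04) and 2.16-fold in NC (1.90 to 2.46).

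Over the pooled fibroblasts, Sod3 was at 594 CPM in HFD and 587 CPM in NC, a ratio of 1.01 (0.981 to 1.04). By counting error alone, the interval holds this pooled ratio to within a few percent of 1. Without the Asc1 class the ratio was 0.970, outside that interval. At equal depth 54.2% of HFD and 54.1% of NC fibroblasts had a Sod3 count. The class labelled pericytes stood apart, with a ratio of 1.32 (1.17 to 1.49), against 0.849 (0.699 to 1.03) in myofibroblasts. Shares in the class labelled pericytes were 47.1% (43.1 to 51.2%) in HFD and 40.8% (34.6 to 47.2%) in NC, with overlapping intervals, and the NC side rests on 250 cells. In that class 11.4% of 7016 measured genes were at least 1.5-fold higher in HFD, and the median log2 ratio of all genes there was 0.083. Sod1, the cytosolic dismutase, also had its highest ratio in the class labelled pericytes, at 1.47 (1.15 to 1.89), from 109.7 CPM in HFD and 74.8 CPM in NC. With cells of 1000 or more genes and no more than 5% mitochondrial counts, that Sod1 ratio was 1.29, and without the 10 cells richest in the gene it was 1.67. Those 10 cells held 12.1% of the Sod1 counts of that class in HFD and 25.8% in NC, so their removal lowers the NC side more.

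Elsewhere Sod1 was nearly level across classes. It ranged from 89.1 CPM in Pi16 fibroblasts to 109.7 CPM in the class labelled pericytes in HFD, and from 74.8 to 91.8 CPM in NC, and no neighbours in either order differed beyond counting error. The extremes differed 1.23-fold in both libraries, with an interval that leaves out 1 in HFD (1.01 to 1.504) and holds it in NC (0.889 to 1.69). The class with the highest Sod1 level was not the same in the 2 libraries. In the pooled fibroblasts the ratio was 1.13 (1.05 to 1.23), from 100.7 and 88.8 CPM. It was 1.20 in Gas6 fibroblasts (1.06 to 1.36) and 1.14 in Asc1 fibroblasts (1.02 to 1.29), and its intervals held 1 in Pi16 fibroblasts and myofibroblasts.

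Sod2, the mitochondrial dismutase, was lower in HFD in all 4 fibroblast classes. It stood at 159.6 CPM in the pooled HFD fibroblasts and 248 CPM in NC, a ratio of 0.644 (0.610 to 0.680). The share of fibroblasts with a Sod2 count at equal depth was 16.1% in HFD (15.1 to 17.1%) and 22.2% in NC (21.3 to 23.1%). Both fewer cells with a count and a lower summed level were thus seen. Cells with a count held a mean of 6.17 counts in HFD and 5.91 in NC before thinning. These means are not at equal depth, as the pooled fibroblasts had medians of 9541 counts per cell in HFD and 7401.5 in NC. The summed level of 9 genes induced by tissue dissociation, among them Fos, Jun and Egr1, was 25600 CPM in HFD and 23619 CPM in NC in the pooled fibroblasts and 15046 and 16497 CPM in the class labelled pericytes, and its part in the Sod2 values was not tested.

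By class, Sod2 was at 188.6 CPM in HFD and 290.1 CPM in NC in Gas6 fibroblasts, its highest class in both libraries, a ratio of 0.650 (0.597 to 0.707). In myofibroblasts it was at 107 and 235 CPM, a ratio of 0.457 (0.347 to 0.596). The 10 myofibroblasts richest in Sod2 held 33.3% of its counts there in HFD and 29.1% in NC. At equal depth, 11.2% of HFD (8.58 to 14.2%) and 16.0% of NC myofibroblasts (13.3 to 19.1%) had a count, with overlapping intervals. Gas6 fibroblasts and myofibroblasts passed the 1.5-fold size, with 5.91% and 7.94% of all measured genes at least that much lower in them. Asc1 fibroblasts, at 163.6 and 239.6 CPM, and Pi16 fibroblasts, at 103 and 153 CPM, lay just inside it, with ratios of 0.683 (0.628 to 0.742) and 0.670 (0.557 to 0.803). In the class labelled pericytes, at 96.9 and 112 CPM, the ratio was 0.865 (0.696 to 1.08). Without the 10 cells richest in Sod2 in each library it was 1.09 there. Those cells held 13.2% of the Sod2 counts of that class in HFD and 33.2% in NC, where the class has fewer cells. The removal thus weighed more on the NC side, and the direction in that class is undecided. The 5 classes kept the same order in both libraries, Gas6 fibroblasts first and the class labelled pericytes last. In HFD, however, no neighbours among the last 3 were apart from each other beyond counting error. Myofibroblasts lay level with Asc1 fibroblasts in NC (1.02-fold lower, interval of the ratio 0.879 to 1.19) but below them in HFD (1.53-fold, 1.21 to 1.95).

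**Figure D4:**
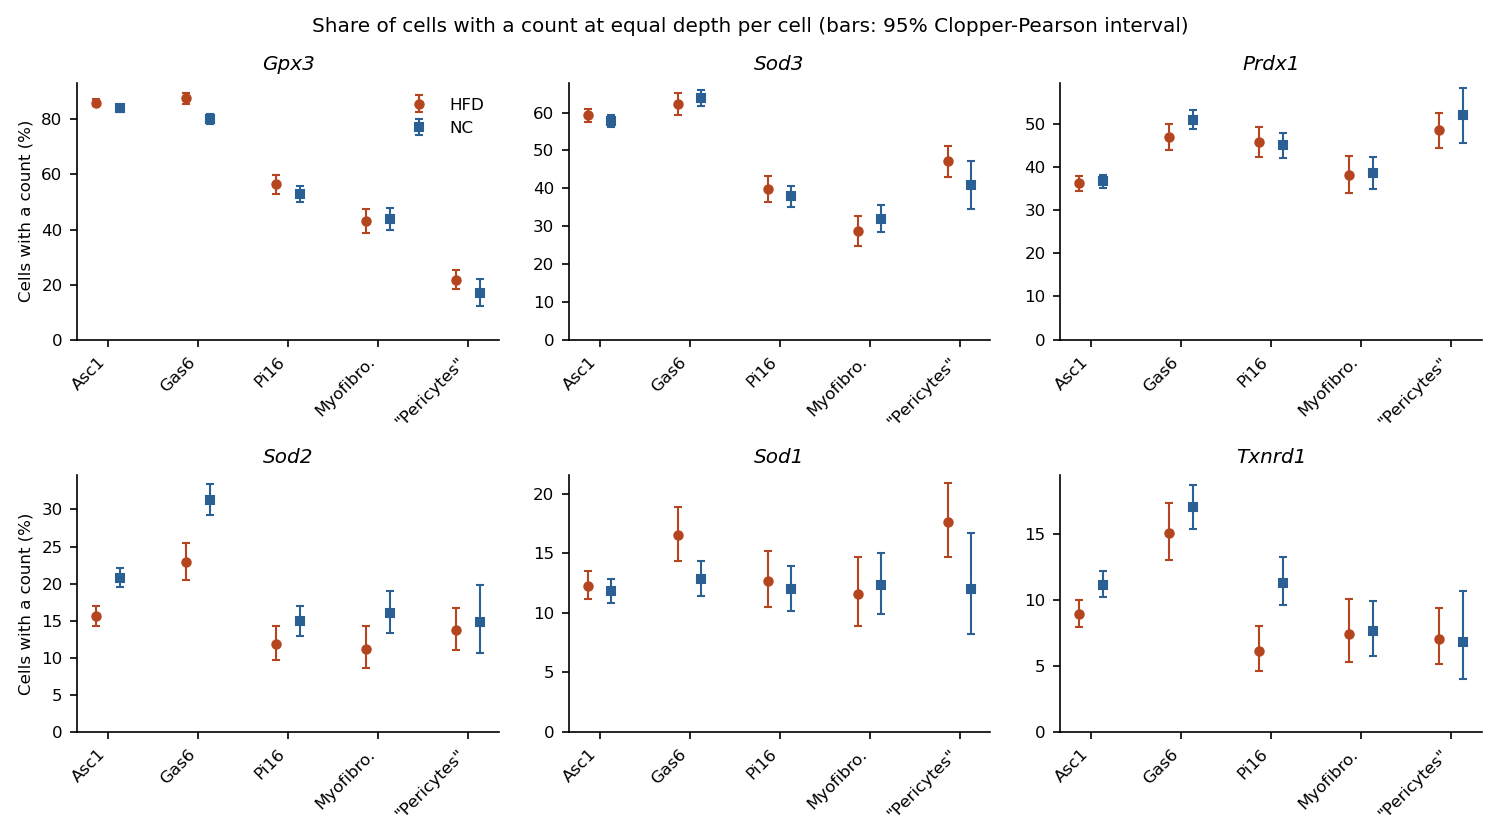
Share of cells with at least 1 count of 6 members after each cell was thinned to 2000 counts (vertical axes in percent, from 0), by class; circles are HFD and squares NC, 1 library each, with 95% Clopper-Pearson intervals. Gpx3 reaches 87.7% of HFD and 80.1% of NC Gas6 fibroblasts, and Sod2 in fewer HFD than NC cells, with intervals apart in Asc1 and Gas6 fibroblasts.

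Among the peroxide-removing enzymes inside the cell, Prdx1 was nearly level and Cat sparse. Prdx1, a cytosolic peroxiredoxin, ranged from 400.2 CPM in Asc1 fibroblasts to 481 CPM in Pi16 fibroblasts in HFD, and from 419.6 to 520.0 CPM in NC, with the same order of classes. No neighbours in that order differed beyond counting error, although the extremes did, by 1.20-fold in HFD (1.11 to 1.30) and 1.24-fold in NC (1.16 to 1.33). The pooled ratio was 0.943 (0.910 to 0.978), from 427 and 453 CPM, and the lowest class ratio was 0.924 in Pi16 fibroblasts (0.846 to 1.01), with intervals that hold 1 in all 5 classes. At equal depth 39.9% of HFD and 41.8% of NC fibroblasts had a Prdx1 count. Cat, the peroxisomal catalase, stood at 27.3 CPM in HFD and 27.6 CPM in NC, a ratio of 0.989 (0.855 to 1.14), and 3.57% of fibroblasts in both libraries had a count at equal depth. It was highest in the class labelled pericytes in both libraries, at 34.04 and 31.3 CPM, with no neighbours in its order apart beyond counting error. Its extremes differed 1.65-fold in HFD (1.11 to 2.49) and 1.42-fold in NC (0.788 to 2.65).

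Txnrd1, the cytosolic thioredoxin reductase, was highest in Gas6 fibroblasts, like Sod2, and was also lower in HFD. It was at 82.7 CPM in the pooled HFD fibroblasts and 109 CPM in NC, a ratio of 0.758 (0.701 to 0.820). Gas6 fibroblasts were at 97.9 and 131 CPM, a ratio of 0.747 (0.662 to 0.843), and the class labelled pericytes, the lowest, was at 38.3 and 41.5 CPM, a ratio of 0.922 (0.646 to 1.34). Pi16 fibroblasts, at 57.8 and 89.2 CPM, had a ratio of 0.648 (0.506 to 0.826), the one class past the 1.5-fold size, where 5.88% of 7497 genes were at least that much lower. In that class Txnrd1 had a count, at equal depth, in 6.16% of cells on HFD (interval 4.59 to 8.06%) and 11.3% on NC (9.58 to 13.2%). Asc1 fibroblasts and myofibroblasts were at 0.844 (0.745 to 0.954) and 0.832 (0.560 to 1.23). With that stricter choice of cells the Pi16 ratio of Txnrd1 was 0.685, inside the 1.5-fold size.

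Hmox1, haem oxygenase 1, was the member highest in Pi16 fibroblasts in both libraries beyond counting error from the next class. Its level there was 38.5 CPM in HFD and 56.5 CPM in NC, against 19.8 and 29.6 CPM in Asc1 fibroblasts and 22.7 and 29.2 CPM in Gas6 fibroblasts. The pooled level was 22.98 and 33.1 CPM, a ratio of 0.694 (0.598 to 0.804), just inside the 1.5-fold size. It was below 1 in the 3 classes with enough counts, at 0.667 in Asc1 (0.522 to 0.850), 0.779 in Gas6 (0.601 to 1.003, which holds 1) and 0.682 in Pi16 fibroblasts (0.501 to 0.920). At equal depth 2.75% of HFD fibroblasts (2.33 to 3.22%) and 3.92% of NC fibroblasts (3.50 to 4.37%) had a count. Macrophages also express Hmox1 strongly. Of 9 macrophage and monocyte markers 8 were found, with Ptprc at 0 in both libraries and Adgre1 and Marco also at 0 in HFD, and they summed to 37.5 CPM in pooled HFD and 51.9 CPM in pooled NC fibroblasts, and to 55.3 and 91.8 CPM in the Pi16 class. The part of such RNA in the Hmox1 values was not tested.

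Gclm, the modifier subunit of glutamate-cysteine ligase, was level. It ranged from 29.7 to 34.04 CPM over the classes in HFD and from 31.2 to 41.02 CPM in NC, with no neighbours apart beyond counting error. Its pooled ratio was 0.949 (0.830 to 1.08), from 31.6 and 33.3 CPM. Nqo1 was rarely seen in fibroblasts, at 2.54 CPM in 46 HFD cells and 2.99 CPM in 66 NC cells, a ratio of 0.850 (0.522 to 1.36). In the class labelled pericytes it stood at 12.3 CPM in HFD (45 of 596 cells) and 14.7 CPM in NC (20 of 250 cells), its highest class in both libraries. At equal depth that was 2.18% (1.17 to 3.70%) and 3.20% (1.39 to 6.21%) of those cells, against 0.227% and 0.327% of Asc1 fibroblasts. It differed from the next class beyond counting error in HFD, by 3.27-fold over Gas6 fibroblasts (1.73 to 6.47), and not in NC, by 2.07-fold over myofibroblasts (0.772 to 6.42). No single class held enough Nqo1 counts for a diet ratio.

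Counted over the 5 classes, 42 member ratios were measured and 3 passed the 1.5-fold size, all lower in HFD: Sod2 in Gas6 fibroblasts and myofibroblasts and Txnrd1 in Pi16 fibroblasts. No member passed it in Asc1 fibroblasts (9 measured, against 10.3% of all genes in either direction, 4.88% higher and 5.46% lower) or in the class labelled pericytes (8 measured, against 18.2%, 11.4% higher and 6.77% lower). In Gas6 fibroblasts 1 of 9 passed (12% of all genes in either direction, 6.08% higher and 5.91% lower), in Pi16 fibroblasts 1 of 9 (11.6%, 5.7% higher and 5.88% lower) and in myofibroblasts 1 of 7 (15.6%, 7.62% higher and 7.94% lower). These shares are near the background of each class. Of the 9 members measured in any single class, Gpx3 and Sod1 were above 1 in all 5 of theirs, while Sod2, Txnrd1 and Prdx1 were below 1 in all 5 and Hmox1 in all 3. How many of all genes lay on 1 side in every class was not counted, and the classes of a diet share 1 library. The agreement is therefore not read as particular to the members. Some of the members' sides are close to ties and turned under other settings. Sod1 in Pi16 fibroblasts was at 0.972 with TMM scaling and 0.963 with median of ratios scaling, and in myofibroblasts at 0.953 in thinned cells. Txnrd1 in the class labelled pericytes was at 1.08 with the stricter choice of cells and 1.19 without the 10 richest cells, and in myofibroblasts at 1.28 in thinned cells. The 10 richest cells held 23.7% of the Txnrd1 counts of the class labelled pericytes in HFD and 42.6% in NC, so their removal lowers the NC side more. Prdx1 in myofibroblasts ran from 0.919 in thinned cells to 1.03 with means of per-cell CPM. The same class was highest in both libraries for 7 of 10 members, against 53.8% of 13422 genes.

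The deposited annotation splits a SNAT2 subset from the Asc1 class, of which 245 of 810 HFD and 359 of 989 NC cells passed the filter, against 2847 of 2957 and 3640 of 3724 of the other Asc1 fibroblasts. Its values thus describe the minority that passed. It was shallow, with medians of 4009 and 3037 counts per cell, and had median mitochondrial shares of 6.27% and 6.44%. Prdx1 was lower there, at 198 CPM in HFD and 259 CPM in NC, than in the other Asc1 fibroblasts, at 409 and 427 CPM. Gpx3 was at 1349 and 1317 CPM in the subset and at 2156 and 1818 CPM in the rest, whereas Txnrd1 was at 137 and 147 CPM in the subset and 79.4 and 94.5 CPM in the rest. None of these pairs of intervals overlapped. The Sod2 ratio was 0.473 in the subset (0.289 to 0.751) and 0.692 in the rest (0.636 to 0.753). Nqo1 had a count in 0 of 245 and 0 of 359 cells of the subset, which allows up to 13.4 and 10.1 CPM at 3 effective counts.

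Likeness of class profiles was described over 10 sums, 5 classes in each of 2 libraries, on log2(CPM + 1), among 4073 genes with at least 50 CPM in 1 sum. The points share libraries and classes, so no test is given. Nearest to Gpx3 were Pla2r1 and Lmo4 (Pearson r 0.989 for both) and Ppp1r15a (0.984). Nearest to Sod3 were Rasl11a and Gyg (0.975 for both) and Hadh (0.971). Among the 7 members that reach this minimum (not Cat, Nqo1 and Gclm), Sod2 and Txnrd1 were most alike (0.863), then Gpx3 and Txnrd1 (0.835) and Gpx3 and Sod3 (0.720). The lowest value was that of Sod3 and Prdx1 (-0.52), although Prdx1 was nearly level across the classes.

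Other genes of the redox systems were taken from 8 lists. Of 77 listed genes 73 were found and 69 measured in the pooled fibroblasts, and 1 was at least 1.5-fold higher in HFD and 3 at least 1.5-fold lower, against 5.45% and 4.75% of all genes. The one higher was Slc40a1, the iron exporter ferroportin, at 7.09 and 4.50 CPM, a ratio of 1.58 (1.14 to 2.18). The lower ones were Gclc, the catalytic partner of GCLM, at 14.5 and 24.3 CPM, 0.599 (0.498 to 0.717), Slc31a1, a copper importer, at 0.644 (0.522 to 0.791), and Ggt5, a gamma-glutamyltransferase, at 0.642 with an interval that holds 1 (0.354 to 1.13). Gclc was below 1 in all 4 classes with enough counts, and its partner Gclm was at 0.949 in the same sums. The median log2 ratio over the 69 genes was -0.021.

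Of 8 genes of NRF2 control, 6 had a ratio below 1 and none passed the 1.5-fold size. Their median log2 ratio was -0.20, against 0.025 over all genes measured. How many of all genes lay below 1, or had intervals that leave out 1, was not counted, here or for the other lists. Nfe2l2 itself was at 112 CPM in HFD and 141 CPM in NC, a ratio of 0.793 (0.740 to 0.848), and was below 1 in all 5 classes. Its partner Mafk was at 0.846 (0.775 to 0.923) and its competitor Bach1 at 0.811 (0.702 to 0.935). Sqstm1, at 1.07 (1.03 to 1.12), and Keap1, at 1.16 (0.976 to 1.37), lay above 1 and are named after their values were seen. In the thioredoxin system, with 6 of 9 below 1, Srxn1, which repairs over-oxidised peroxiredoxins, was at 0.687 (0.583 to 0.807), Txn1 at 0.846 (0.811 to 0.882) and Txnip, a thioredoxin inhibitor, at 0.924 (0.885 to 0.964).

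**Figure D5:**
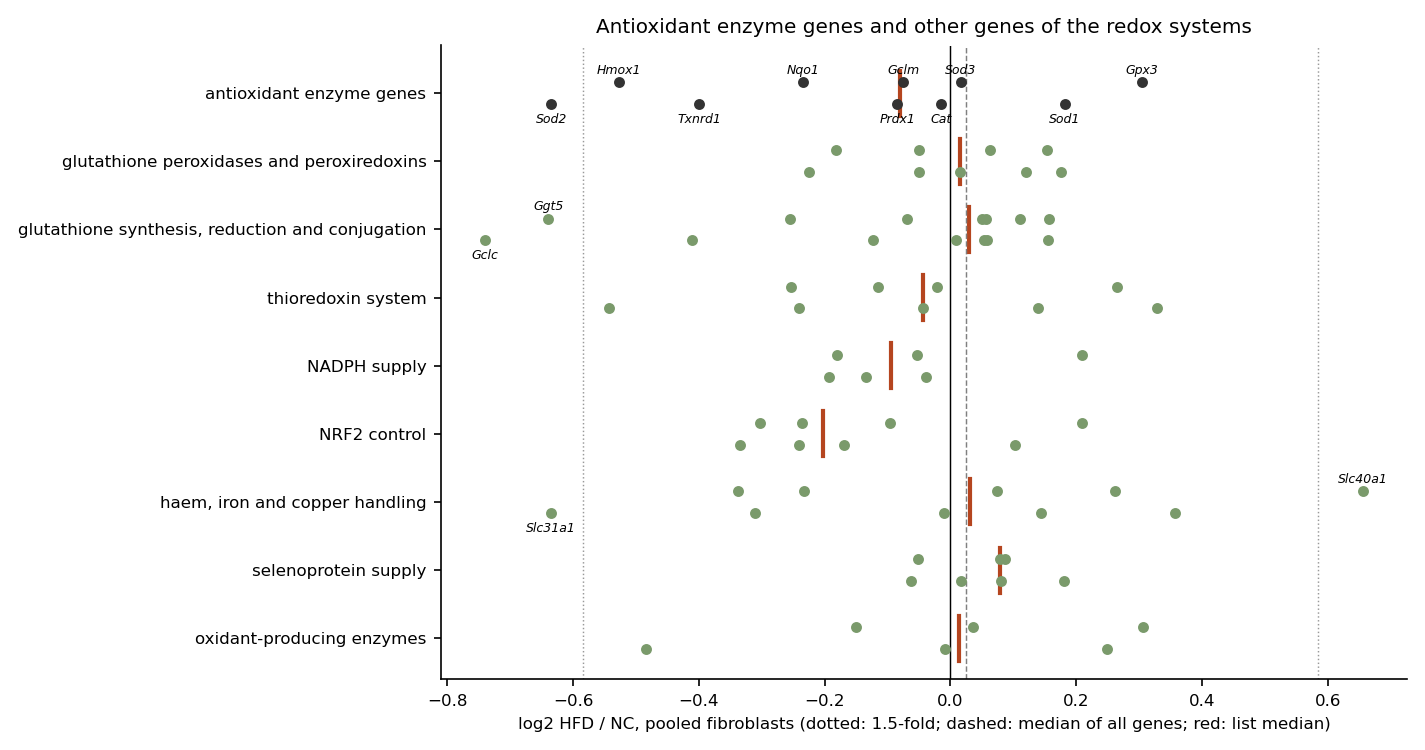
Log2 HFD over NC ratio in the pooled fibroblasts (horizontal axis) of the 10 members and of 69 other redox genes by list; each point is a gene, red bars are list medians, dotted lines 1.5-fold and the dashed line the median of all genes, 0.025. The members run from Sod2 to Gpx3, and 4 other genes, named, pass 1.5-fold.

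In the family of glutathione peroxidases and peroxiredoxins, none of 9 genes passed the size and 4 were below 1. Gpx4, which reduces lipid peroxides, was at 1.11 (1.07 to 1.16), the cytosolic Gpx1 at 0.882 (0.843 to 0.923) and Prdx6 at 0.856 (0.821 to 0.892). Gpx1 and Prdx6 thus lay on the other side of 1 from Gpx3. Their log2 ratios, -0.18 and -0.22, were near the median absolute log2 ratio of all genes measured, 0.20. Of 14 measured genes of glutathione synthesis, reduction and conjugation, 6 had a ratio below 1, with intervals above 1 for 4 and below 1 for 3. The transferases ran both ways, with Gsta3 at 0.838 (0.801 to 0.877) and Gsta4 at 0.752 (0.628 to 0.898), and, named after their values were seen, Gstm1 at 1.04, Gstp1 at 1.08, Gstt1 at 1.12 and Mgst1 at 1.11, all 4 with intervals above 1. Of NADPH-supplying enzymes 5 of 6 were below 1, among them Tkt at 0.875 (0.794 to 0.964) and Pgd at 0.911 (0.801 to 1.03), while Idh1 was at 1.16 (1.01 to 1.32).

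Metal handling was mixed, with 5 of 10 genes below 1. Fth1, the ferritin heavy chain, was at 7230 CPM in HFD and 8969 CPM in NC, a ratio of 0.806 (0.799 to 0.813), below 1 in all 5 classes. Atox1, a copper chaperone that delivers copper towards secreted enzymes such as SOD3, was at 1.28 (1.20 to 1.37), above 1 in all 5 classes, while Slc31a1 was lower, as given above. In the list of selenoprotein supply, which also holds selenoproteins such as that of Selenow, the genes named lay close to 1. Selenop was at 0.965 (0.929 to 1.002), Selenow at 1.06 (1.02 to 1.09) and Lrp1 at 0.957 (0.928 to 0.987). Among oxidant-producing enzymes, Nox4 was at 1.24 (1.18 to 1.30) and Aox1 at 1.19 (1.03 to 1.37), whereas xanthine dehydrogenase, Xdh, was at 0.715 (0.665 to 0.768) and below 1 in all 5 classes.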

How the data were processed

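Per the labels' protocols, a company prepared the libraries with a 10x Genomics 3′ kit. Reads were handled with STAR and build mm39, per the submitters' processing notes. How molecules were counted, and how reads matching several loci were assigned, is not given in the sources used here. The deposited tables hold log2(CPM + 1) per cell, as the values show, with an estimated count total per cell and the mitochondrial and ribosomal percent, per the file headers. Counts were recovered from the log2 values and the later total column, and 98.85% of HFD and 98.96% of NC nonzero values were whole within 0.01 before rounding. Counts were divided by a variance factor, the median over genes seen in 0.1 to 1% of cells of summed squares over sums. Class sums gave CPM and ratios with exact conditional 95% Poisson intervals, and shares have Clopper-Pearson intervals. Thinning used seed 1 and left out 3 HFD and 25 NC cells. Doublets were not removed. With 1 library a diet there was no test.

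Symbols came from a gene name table (20180 of 21014 identifiers), and transcript lengths from an annotation of an older build, without coordinates. Promoters are RefSeq GRCm38.p6. The members and lists were chosen with earlier results of these data known. All members are named, and of each list at most 3 genes with the interval bound farthest from 1, plus any at least 1.5-fold apart. Alternatives covered cell filters, scaling (TMM from edgeR 4.0.16, median of ratios, totals without mitochondrial counts), means per cell, thinning, classes pooled, richest cells, minimums and sizes, and 2 added after seeing the data (without the SNAT2 subset, and without barcodes that both libraries hold). Intervals were run on simulated Poisson counts that were scaled by the same variance factors and held no variation between cells. That checked the calculation, and not how well the intervals fit these data. Python 3.11.15, numpy 2.4.6, scipy 1.17.1, pandas 2.3.3 and R 4.3.3 were used.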

Additional observations from a re-analysis of the deposited data

How the results depend on the processing

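Over 12 alternatives, the log2 ratio in the pooled fibroblasts ran from 0.25 to 0.33 for Gpx3, 0.13 to 0.22 for Sod1, -0.71 to -0.59 for Sod2, -0.48 to -0.39 for Txnrd1, -0.61 to -0.46 for Hmox1 and -0.11 to -0.065 for Prdx1. Those of Sod3, Cat and Gclm lay on both sides of 0 (-0.044 to 0.045, -0.059 to 0.082 and -0.18 to 0.016), and that of Nqo1 ran from -1.30 in thinned cells to -0.15. The members' median ran from -0.12 to 0.016. No called ratio changed sign. The count of pooled members called, 1, was 3 with the 4 fibroblast classes weighted equally (Sod2, Hmox1 and Nqo1, all lower), 3 with a smaller fold as the limit and 0 with a ratio of 2. The 3 calls in single classes were 5 with no cell filter, 5 with cells of 1000 or more genes and no more than 5% mitochondrial counts (4 lower, and Sod1 higher in myofibroblasts at 1.58), 5 with TMM factors, 5 with median of ratios factors and 5 with means of per-cell CPM. They were 9 without the 10 richest cells (2 higher and 7 lower), 6 with no minimum, 13 with the smaller fold (3 higher and 10 lower) and 1 with a ratio of 2. In thinned cells there were 4, 1 higher and 3 lower. The 10 richest cells are a larger part of a class in the library with fewer cells of it, so that removal is not alike on both sides. The 4 pathway genes called were 2 at 200 effective counts, 11 with the smaller fold (3 higher and 8 lower) and 0 with a ratio of 2. Where scaling or cells differed, the cause was not tested. The other 55 values of the counts and of the median stayed within the limits used (1.5 times for a count). Of 120 log2 ratios of single members, 7 moved beyond their counting interval, most of them those of Gpx3. Gpx3 moved with the stricter cells (0.33), means of per-cell CPM (0.27), thinned cells (0.26), equally weighted classes (0.25) and without the Asc1 class (0.27). The others were Sod3 without the Asc1 class and Nqo1 in thinned cells. TMM or median of ratios factors moved the median log2 ratio of all genes by -0.060 to 0.018. For genes whose longest annotated transcript is 800 nt or less the median log2 ratio was 0.10. The longest annotated transcript of every member is over 1500 nt, in length classes with medians of 0.031 and 0.0065. Which transcript of a gene was expressed was not examined, so the one counted can be shorter. The part of transcript length in the members' ratios was not tested. Counts were too few for Nqo1 in any class and for Hmox1 and Cat in some. No paired analysis was possible because each diet has 1 library.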
